A study of Homo sapiens with 12 samples.

Results

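The comparison set an inducible HEK293 clone that had not been induced against the parental HEK293 cells, and so asked which genes and circular RNAs differed before the transgene was switched on. It used 6 of the 12 libraries of the study. The 3 libraries of the uninduced clone came from experiment 1, and the 3 libraries of the parental cells from experiment 2, and the deposited gene and circular RNA tables were joined by Ensembl gene identifier or by circular RNA identifier. The clone was derived from HEK293 cells deficient in RBFOX2 and carries HA- and Flag-tagged mouse Rbfox1 under a doxycycline-inducible promoter (Flp-In T-REx). Its libraries in this comparison are labelled not treated. The parental cells carry neither change and are labelled as treated with doxycycline, and a dose of 0.5 µg/ml for 2 weeks stands in the protocol given with all samples. The other 6 libraries, 3 in each experiment, are of the same clone on doxycycline (the induced clone). The clone is 1 line, so a difference may belong to that clone or to the deficiency. Genotype, doxycycline and experiment coincide in the 6 libraries and cannot be told apart within them. Nothing in the labels says that the replicates are separate cultures, so each p-value reflects library-to-library spread alone, which may be technical.

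HEK293 is a human embryonic kidney line that grows as an adherent epithelial-like culture and also transcribes many neural genes. The RBFOX proteins (RBFOX1, RBFOX2 and RBFOX3) are RNA-binding splicing regulators that recognise GCATG motifs in introns and promote or repress neighbouring exons. Lines grown from a single cell can keep expression states of that founder cell, among them silenced or active promoters and gains or losses of chromosome segments. Circular RNAs (circRNAs) are made when a downstream splice donor joins an upstream acceptor, and are counted by reads over that back-splice junction.

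Gene counts totalled 34025315 to 48883252 per uninduced library and 40809566 to 50261916 per parental library. The experiments differed in composition. Mitochondrial genome transcripts took 26.3 to 28.3% of counts in the uninduced clone and 0.93 to 1.02% in parental cells, and in the induced clone they took 27.4 to 28.6% in experiment 1 and 1.01 to 1.20% in experiment 2. This split followed the experiment and not the cell line. The following therefore gives, for each gene, its count scaled to a library of 1000000 (CPM, with library sizes scaled over all 12 libraries), its log2 difference over the 6 libraries (uninduced clone minus parental), and its log2 difference in a fit of all 12 libraries with experiment as a term. In that second fit the induced libraries tie the experiments together, which assumes that induction acts alike in both. It does not separate doxycycline from cell line, because the uninduced clone was untreated and the parental cells were treated in that fit too. CPM values are not compared between genes, and a lower level in bulk RNA cannot tell fewer expressing cells from less RNA per cell.

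RBFOX1 was present in the clone and silent in parental cells, and RBFOX2 was lower in the clone without being absent. RBFOX1 had 4.71, 3.90 and 3.50 CPM in the 3 uninduced libraries and no read in any parental library. Against a floor of 3 counts over the parental group it was at least 197-fold higher in the uninduced clone. The induced clone held 42.0 ± 0.491 CPM in experiment 1 and 37.4 ± 0.888 CPM in experiment 2 (SD, n = 3 each). The table does not separate reads of the mouse transgene from reads of the human gene. RBFOX2 had 54.3, 55.9 and 62.5 CPM in the uninduced clone, against 172, 171 and 170 CPM in parental cells. The groups did not overlap, and the log2 difference was -1.57 (SE 0.06, edgeR adjusted p = 1.8e-09), or -1.85 with experiment as a term. RBFOX3 averaged 1.72 ± 0.214 CPM in the uninduced clone and 0.859 ± 0.124 CPM in parental cells (SD, n = 3 each). Its log2 difference of 0.99 (edgeR adjusted p = 0.00096) missed the threshold with experiment as a term, where it was 0.72 (adjusted p = 0.059).

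Genes transcribed in the clone and silent in parental cells included neural and membrane proteins. An on gene was defined as one with no read in any parental library and at least 10 reads in every uninduced library, and an off gene as the reverse. Of 30167 genes listed in both tables, 77 were on (0.255%), of which 23 were protein-coding (0.142% of 16186). In the same clone under the same drug, 16 genes (0.053%) were on in experiment 1 and silent in experiment 2, and 0 (0%) were the reverse. These counts are held down by the listing, because each table lists no gene without a read. A gene silent in the induced clone of an experiment was counted only if the other group of that experiment had a read of it. The counts thus do not measure how often genes switch between experiments. Of the 77, 28 also had at least 10 reads in every induced library of experiment 2, the experiment of the parental cells, and 14 of these were protein-coding. Each of the 77 is listed for experiment 2 without a parental read, and so had at least 1 read in the induced clone there. A further 34 genes met the read limit in the uninduced clone but had no read in experiment 2. With them, on genes numbered 111. The 28 thus come from genes already selected for a read in that induced group. Other on genes were near 0 there. ENSG00000225840, the on gene of highest mean, had 205 CPM in the uninduced clone, and 23.1 and 0.00815 CPM in the induced clone of experiments 1 and 2. The small nuclear RNA RNVU1-7 had 13.1 CPM in the uninduced clone, and 11.7 and 0.0495 CPM in the induced clone of experiments 1 and 2. The 8 protein-coding on genes with the highest mean CPM were RBFOX1 and 7 others, described here in order.

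MUC16, the large membrane mucin known as CA125, had 78.3, 78.6 and 82.4 CPM in the uninduced clone and no read in parental cells, at least 3889-fold higher. Its induced libraries in experiment 2 held 29.2, 26.4 and 13.6 CPM, so the gene was also on in the clone within the parental cells' own experiment. CADPS, which primes dense-core vesicles for release, had 19.3, 20.1 and 19.9 CPM in the uninduced clone and none in parental cells, at least 965-fold higher. The KRAB-type zinc finger gene ZNF677 had 8.21, 8.56 and 8.76 CPM in the uninduced clone and none in parental cells, at least 415-fold higher, and reached 12.9 ± 0.940 CPM in the induced clone of experiment 2. FAM19A5, a secreted chemokine-like protein of the brain, had 8.67, 8.28 and 7.10 CPM in the uninduced clone, at least 391-fold above parental cells. LHFPL4, a partner of GABA-A receptors at inhibitory synapses, had 6.46, 6.22 and 4.41 CPM, at least 278-fold higher. RAMP1, a subunit of the receptor for calcitonin gene-related peptide, had 5.03, 5.09 and 3.87 CPM, at least 227-fold higher. BRINP2, a neural gene, had 2.55, 2.46 and 2.08 CPM in the uninduced clone, at least 115-fold higher. Each of these 7 genes was on in every clone library of both experiments, with the lowest mean at 0.371 CPM for BRINP2 in the induced clone of experiment 2.

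Genes silent in the clone and transcribed in parental cells were counted the same way. They too included neural and membrane proteins, among them the GABA-A receptor subunits GABRA2 and GABRA4, at means of 0.837 and 0.457 CPM in parental cells. Off genes numbered 54 (0.179%), of which 42 were protein-coding (0.259%), and 28 of the 54, 19 of them protein-coding, had no read in the induced clone of experiment 2 either. Each of the 54 is listed in the table of experiment 1, which lists no gene without a read, and so had at least 1 read in the induced clone there. GYG2, a glycogenin that primes glycogen synthesis, had no read in the uninduced clone, against 22.1, 20.5 and 22.1 CPM in parental cells, at least 879-fold lower in the clone. The 6 induced libraries of the clone held 1 read of it in all. SHROOM2, an actin-binding protein of epithelial cells, had no read in the uninduced clone against 8.37, 7.84 and 6.99 CPM in parental cells, at least 315-fold lower. FAM50B, an imprinted retrogene, had none against 7.22, 8.38 and 6.53 CPM in parental cells, at least 301-fold lower.

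The other 5 of the 8 leading off genes were a protease, a growth factor, a channel and membrane or actin-associated proteins. TLL1, a tolloid-like metalloprotease, had no read in the uninduced clone against 6.37, 6.4 and 6.92 CPM in parental cells, at least 267-fold lower. NRG3, a neuregulin ligand of ERBB4, had none against 5.91, 5.70 and 6.84 CPM, at least 251-fold lower. KCNT2, a sodium-activated potassium channel, had none against 5.20, 6.38 and 6.82 CPM, at least 250-fold lower. All 3 were near 0 in the clone throughout: the induced clone of experiments 1 and 2 had 3 and 8 reads of TLL1, 5 and 8 of KCNT2, and 2 and 1 of NRG3. GYPC, the red cell membrane protein glycophorin C, had none against 4.46, 3.75 and 4.83 CPM in parental cells, at least 177-fold lower. PDLIM4, which binds actin filaments through alpha-actinin, had none against 5.27, 3.73 and 3.69 CPM, at least 172-fold lower.

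Parental levels above that of GYG2 also occurred among off genes without a gene type here. ENSG00000256316 and ENSG00000182572 averaged 63.7 and 41.9 CPM in parental cells and had no read in the uninduced clone. Others stood among protein-coding genes that are not listed in the table of experiment 1, which lists no gene without a read. Such genes therefore had no read in the uninduced or induced clone of experiment 1, and those named here had none in the induced clone of experiment 2 either. PABPC4L, related to the poly(A)-binding proteins, had 40.1, 45.1 and 43.8 CPM in parental cells, at least 1752-fold above the uninduced clone. The steroid sulfatase gene STS had 31.8, 38.8 and 37.8 CPM in parental cells, a bound of 1472-fold. PUDP, a pseudouridine-5′-phosphatase, had 29, 26.6 and 28 CPM in parental cells, a bound of 1136-fold. PNPLA4, ARSE and LRAT, which encode a lipase, an arylsulfatase and the enzyme that esterifies retinol, averaged 5.9, 5 and 5.07 CPM in parental cells. Read counts in parental cells ran from 258 to 317 per library for PNPLA4, from 226 to 270 for ARSE and from 206 to 302 for LRAT, against 0 in each of the 9 clone libraries.

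**Figure D1:**
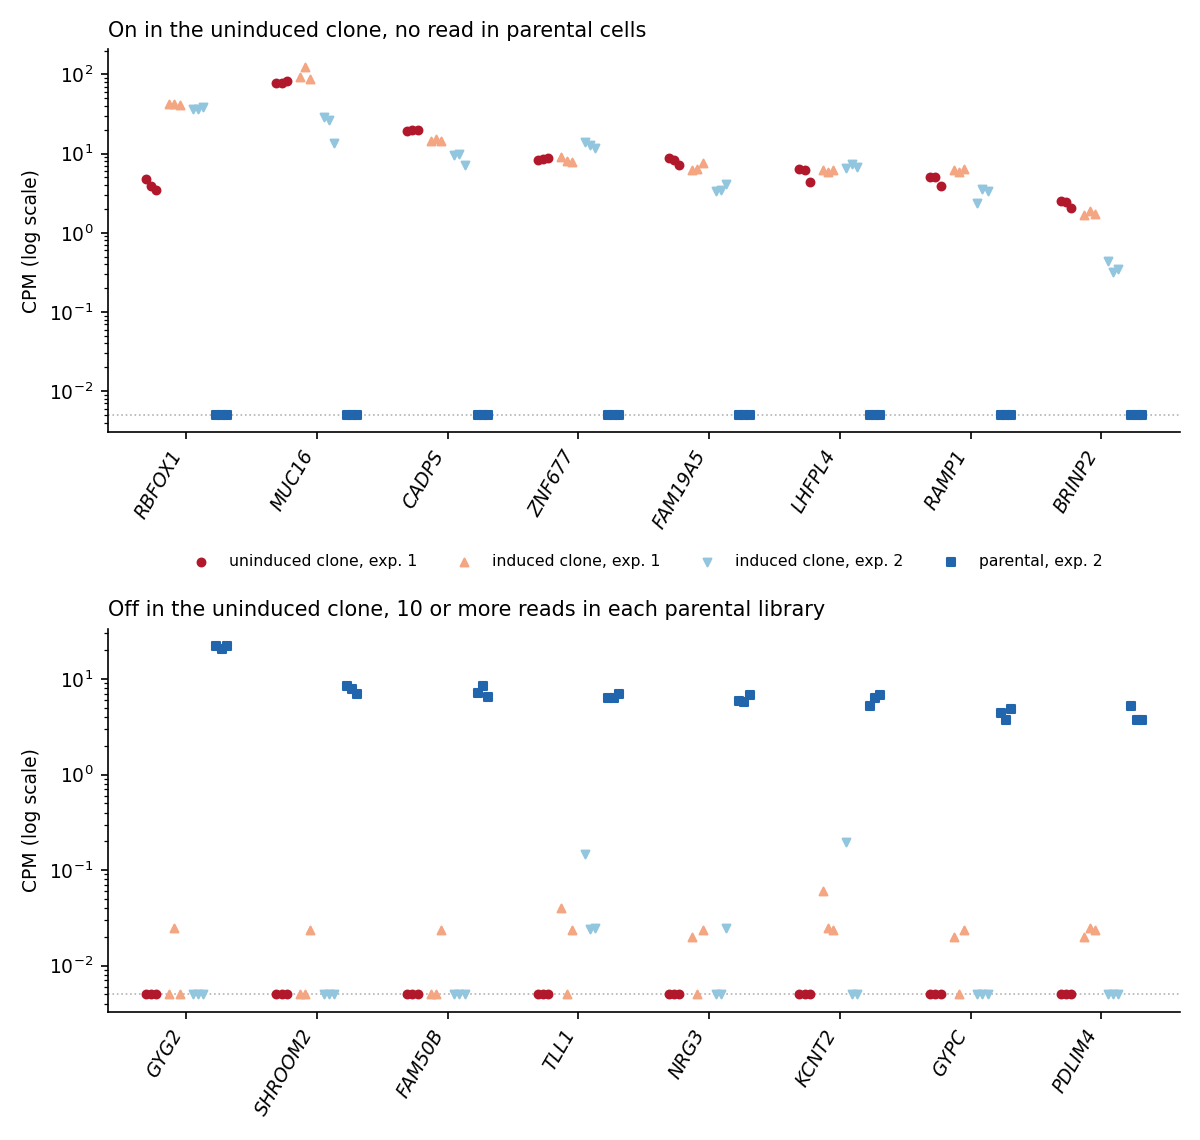
CPM per library on a log axis for the named on genes (top) and off genes (bottom), with the uninduced clone, the induced clone of experiment 1, the induced clone of experiment 2 and parental cells side by side and 3 libraries each. Points on the dotted line stand for 0 reads. MUC16 sits at 78.3 to 82.4 CPM in the uninduced clone and on the line in parental cells, and GYG2 on the line in the uninduced clone and at 20.5 to 22.1 CPM in parental cells.

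Genes of the X chromosome's short arm made up a block. In RefSeq gene order, GYG2, ARSE, PRKX, PUDP, STS and PNPLA4 were neighbours among the tested genes listed in either table, and all 6 were lower in the uninduced clone. The next such block, SHROOM2, WWC3, CLCN4, MID1, HCCS and ARHGAP6, was also lower. MID1, a microtubule-associated ubiquitin ligase, was present in the clone at 72.5 CPM, against 326 CPM in parental cells, with a log2 difference of -2.17, or -2.30 with experiment as a term. The block thus held silent genes and genes with reduced levels side by side.

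Large differences were common in the comparison of the lines, and also occurred between experiments within the clone. Of 19074 genes tested, 7618 (39.9%) were higher and 7505 (39.3%) lower in the uninduced clone at an adjusted p under 0.05, and in 15539 (81.5%) the groups did not overlap, so neither measure singles out a gene here. With scaling by library totals in place of the trimmed mean, 6381 were higher and 8721 lower. A large difference was set at a call and a log2 size of at least 2, and 1999 genes (10.5%) were higher and 1043 (5.47%) lower by that measure. Scaled by library totals, 1713 were higher and 1336 lower. The same clone under the same drug gave 775 large differences upward (4.2%) and 224 downward (1.22%) in experiment 1 against experiment 2. Of those 999, 703 were also large, in the same direction, in the uninduced clone against parental cells, out of 2483 large differences there that could be tested between the induced groups.

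Differences that were large in both fits numbered 670 higher (3.51%) and 352 lower (1.85%). Among 13687 protein-coding genes, 891 were higher (6.51%) and 777 lower (5.68%) by a large difference over the 6 libraries, and 421 (3.08%) and 281 (2.05%) in both fits, which is 702 of 1668. In the induced clone between experiments, 193 protein-coding genes were higher (1.45%) and 129 lower (0.967%) by that size. By gene type, 83 of 204 long noncoding RNAs with a large increase and 30 of 86 with a large decrease were large in both fits. For pseudogenes it was 48 of 379 and 11 of 77. Small nucleolar RNAs had 56 large increases and 0 in both fits, with 113 tested. Some short RNAs followed the experiment. RNY1, a Y RNA, averaged 180 ± 87.5 CPM in the uninduced clone and 7.90 ± 1.97 CPM in parental cells, but 281 ± 66.3 and 5.29 ± 0.148 CPM in the same clone induced in experiments 1 and 2 (SD, n = 3 each). RNU6ATAC, a minor spliceosome RNA, averaged 25.6 ± 5.79 CPM in the uninduced clone and 0.764 ± 0.414 CPM in parental cells, and 35.9 and 0.644 CPM in the induced clone of experiments 1 and 2. Both turned to a lower value in the clone with experiment as a term, at -1.21 for RNY1 and -0.69 for RNU6ATAC.

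**Figure D2:**
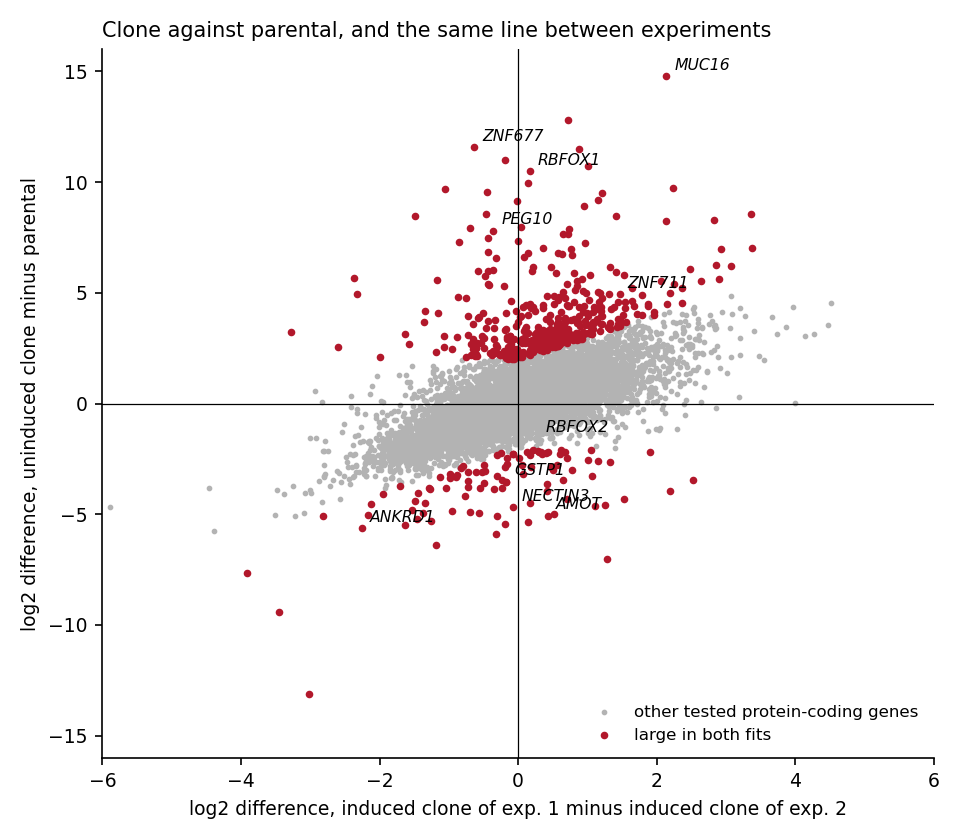
Log2 difference per protein-coding gene, uninduced clone minus parental on the vertical axis and induced clone of experiment 1 minus that of experiment 2 on the horizontal axis. Red points are the 421 higher and 281 lower genes that were large in both fits, and they lie far from 0 on the vertical axis over a range of horizontal values.

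Groups without overlap were found in 84.7% of all protein-coding genes tested. Of the 421 higher and 281 lower protein-coding genes that were large in both fits, 165 and 26 had at least 1 CPM in both groups and no overlap of the groups. The 8 with the largest increase were an imprinted gene, collagen-related genes, a phosphodiesterase and nuclear proteins. PEG10, an imprinted gene derived from a retrotransposon, had 319, 309 and 401 CPM in the uninduced clone, against 1.47, 1.94 and 1.18 CPM in parental cells. The log2 difference was 7.81 (SE 0.17, edgeR adjusted p = 3.5e-11), or 8.17 with experiment as a term. DDR2, a receptor tyrosine kinase activated by collagen, had 88.3, 84.5 and 79.4 CPM in the uninduced clone, against 1.43, 1.21 and 1.18 CPM in parental cells (log2 difference 6.05, or 6.41 with experiment as a term). The induced clone had 39.4 ± 0.584 CPM in experiment 1 and 50.6 ± 5.32 CPM in experiment 2 (SD, n = 3 each), below the uninduced clone but far above parental cells.

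The collagen COL14A1 averaged 125 ± 5.37 CPM in the uninduced clone and 3.82 ± 0.365 CPM in parental cells, with a log2 difference of 5.03 (4.38 with experiment as a term). PDE8B, which hydrolyses cyclic AMP, averaged 38.9 ± 2.47 and 1.24 ± 0.180 CPM in the uninduced clone and parental cells (log2 difference 4.98, or 4). ZNF711, an X-linked zinc finger protein, had 5463, 5156 and 6124 CPM in the uninduced clone, against 178, 173 and 191 CPM in parental cells. Its log2 difference of 4.95 (SE 0.09, edgeR adjusted p = 2.1e-11) became 3.48 with experiment as a term, and the induced clone held 3180 CPM in experiment 1 and 1153 CPM in experiment 2. ZSCAN18 and ZNF793, also zinc finger genes, had log2 differences of 4.88 and 4.76 (4.45 and 5.51 with experiment as a term). AFF2, an X-linked nuclear protein, averaged 67.6 ± 5.42 CPM in the uninduced clone and 2.42 ± 0.206 CPM in parental cells, a log2 difference of 4.8 (4.22).

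The 8 largest decreases among such genes included an adhesion molecule, a collagen, and a binding partner and a target gene of YAP, the coactivator that Hippo signalling restrains. AMOT, a scaffold that binds YAP, had 7.96, 7.92 and 11.4 CPM in the uninduced clone, against 283, 309 and 312 CPM in parental cells. The log2 difference was -5.06 (SE 0.13, edgeR adjusted p = 8.3e-11), or -5.50 with experiment as a term. ANKRD1, a muscle ankyrin-repeat protein and a known YAP target, had 2.03, 3.01 and 2.45 CPM in the uninduced clone, against 124, 141 and 110 CPM in parental cells. Its log2 difference of -5.64 was -3.38 with experiment as a term, and the induced clone had 5.41 ± 0.620 CPM in experiment 1 and 25.7 ± 4.52 CPM in experiment 2 (SD, n = 3 each).

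NECTIN3, an adhesion molecule of adherens junctions, averaged 1.97 ± 0.173 CPM in the uninduced clone and 50.6 ± 1.22 CPM in parental cells, a log2 difference of -4.67 (-4.61 with experiment as a term). COL2A1, the collagen of cartilage, averaged 1.72 ± 0.210 and 41.2 ± 2.15 CPM (-4.59, or -5.85). GSTP1, a glutathione transferase of detoxification, had 12.8, 12.5 and 11.8 CPM in the uninduced clone, against 158, 139 and 131 CPM in parental cells. Its log2 difference was -3.53 (-3.36 with experiment as a term), and the clone had 12.1 and 13.6 CPM when induced in experiments 1 and 2. All 9 clone libraries thus lay far below the parental ones. STAT6, which transmits interleukin-4 signals, averaged 1.48 ± 0.261 CPM in the uninduced clone and 17.2 ± 1.47 CPM in parental cells (-3.52, or -3.35). CIB2, a calcium-binding protein, and BHLHB9, an X-linked gene, had log2 differences of -3.62 and -3.85 (-4.04 and -2.58 with experiment as a term).

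Zinc finger genes on chromosome 19 rose together over a long stretch. The clustered C2H2 zinc finger genes of this chromosome mostly encode KRAB repressors, which bind DNA and silence transposable elements and genes. In RefSeq gene order, 29 consecutive tested protein-coding genes from ZNF565 to ZNF573 were all higher in the uninduced clone by more than 1 on the log2 scale in both fits. The median over the 29 was 2.34, or 2.24 with experiment as a term. The smallest difference was 1.08 (ZNF540) and the largest 4.76 (ZNF793). ZFP82 had 84.2, 81.4 and 90.3 CPM in the uninduced clone, against 4.30, 5.72 and 5.79 CPM in parental cells. The log2 difference was 4.01 (SE 0.11, edgeR adjusted p = 1.1e-10), or 3.86 with experiment as a term, and the induced clone of experiment 2 held 74.7 ± 3.50 CPM (SD, n = 3). ZNF382 had 70.7, 69.4 and 73.4 CPM in the uninduced clone, against 7.98, 8.59 and 9.79 CPM in parental cells (3.01, or 2.54). ZNF146, which lacks a KRAB domain, averaged 470 ± 23.9 CPM in the uninduced clone and 179 ± 2.98 CPM in parental cells (1.39, or 1.18).

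**Figure D3:**
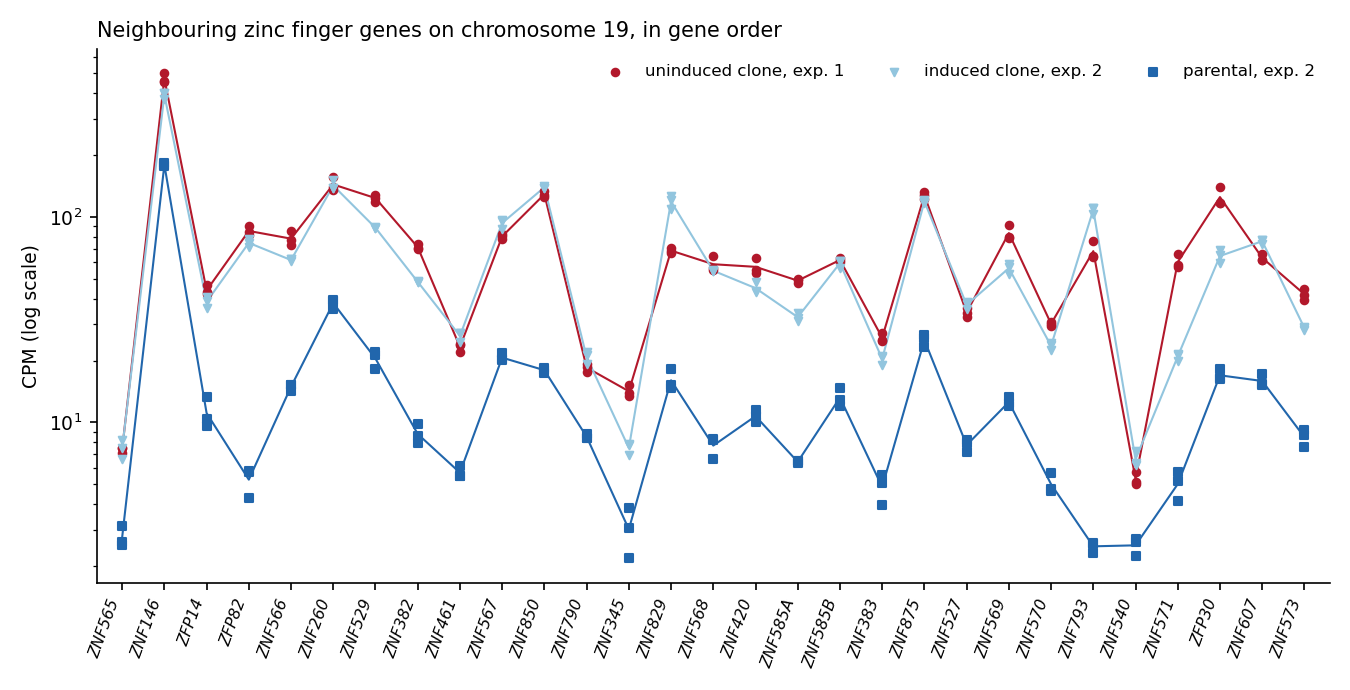
CPM per library on a log axis for the 29 neighbouring genes from ZNF565 to ZNF573 in gene order, with lines at group means for the uninduced clone, the induced clone of experiment 2 and parental cells. ZFP82 lies at 81.4 to 90.3 CPM in the uninduced clone and at 4.30 to 5.79 CPM in parental cells, and the parental points lie below the uninduced clone along the whole stretch.

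Promoters of 4 of these genes are shown because their transcripts were abundant in either the clone or the parental cells and absent or low in the other, and because CG dinucleotides (capitals) are the sites that DNA methylation can occupy. Each is the 250 bases before the RefSeq gene start in GRCh38.p14, read 5′ to 3′ on the gene's strand: ZNF677 at chr19:53254824-53255073 (minus), ZFP82 at chr19:36418645-36418894 (minus), ZNF382 at chr19:36605063-36605312 (plus) and GYG2 at chrX:2828680-2828929 (plus).
ZNF677: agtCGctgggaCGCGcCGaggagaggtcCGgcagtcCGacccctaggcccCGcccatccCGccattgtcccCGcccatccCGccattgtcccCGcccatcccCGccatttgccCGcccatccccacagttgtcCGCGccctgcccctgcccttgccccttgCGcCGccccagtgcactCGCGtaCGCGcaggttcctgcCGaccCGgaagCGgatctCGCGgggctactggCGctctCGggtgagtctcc
ZFP82: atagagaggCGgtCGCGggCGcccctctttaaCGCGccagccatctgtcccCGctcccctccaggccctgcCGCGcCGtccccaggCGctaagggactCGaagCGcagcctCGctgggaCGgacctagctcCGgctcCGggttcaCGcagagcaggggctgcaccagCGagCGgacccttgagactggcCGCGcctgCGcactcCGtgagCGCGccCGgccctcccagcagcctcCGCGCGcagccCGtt
ZNF382: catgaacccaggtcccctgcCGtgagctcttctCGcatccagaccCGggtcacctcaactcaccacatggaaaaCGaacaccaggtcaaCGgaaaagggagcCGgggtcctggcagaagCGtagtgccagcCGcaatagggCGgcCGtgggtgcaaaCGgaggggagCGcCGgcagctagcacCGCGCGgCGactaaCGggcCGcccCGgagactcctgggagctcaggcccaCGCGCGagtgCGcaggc
GYG2: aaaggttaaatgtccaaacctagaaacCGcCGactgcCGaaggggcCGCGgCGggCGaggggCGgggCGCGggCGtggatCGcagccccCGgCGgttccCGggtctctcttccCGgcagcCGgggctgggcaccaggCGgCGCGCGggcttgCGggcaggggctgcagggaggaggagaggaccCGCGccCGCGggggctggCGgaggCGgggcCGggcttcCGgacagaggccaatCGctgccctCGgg
These windows held 28, 31, 24 and 32 CG in that order. At least 15 CG were found in 72.7% of the promoters of 11222 tested protein-coding genes with a RefSeq entry, where the median was 21. Among the other groups it was 61.1% of 18 on genes (23 in all), 44.8% of 29 off genes (42 in all) and 46.4% of 28 genes listed in the parental experiment's table alone (30 in all). It was 52.5% of 339 genes large and higher in both fits, 51.8% of 218 large and lower, and 74.1% of 27 genes of the 29-gene run. No methylation was measured in these libraries, and the CG counts are a description of the reference sequence.

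In all, 43 runs of at least 3 neighbours were higher and 23 lower by more than 1 in both fits, among 13680 protein-coding genes in order, of which 1233 and 900 passed that size. Another on chromosome 19, of 16 genes from LYPD5 to ZNF233, had a median of 1.96 (2.23 with experiment as a term). ZNF221, in that stretch, averaged 40.6 ± 3.32 CPM in the uninduced clone and 3.58 ± 0.349 CPM in parental cells (3.50, or 2.94). ZNF227 averaged 156 ± 4.27 and 27.5 ± 1.23 CPM (2.5, or 2.99). On chromosome 13, 10 neighbours from KCTD12 to NDFIP2 were lower, with a median of -1.82 (-1.49). POU4F1, a neural transcription factor there, averaged 16.4 ± 1.95 CPM in the uninduced clone and 79.7 ± 8.09 CPM in parental cells (-2.29, or -2.21). EDNRB, the endothelin receptor B gene, had 6 reads in all in the uninduced clone and 769 in parental cells. On chromosome 4, 6 genes from RASSF6 to CXCL2, most of them chemokine genes, were higher with a median of 2.32 (1.82).

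Medians over windows of 25 neighbouring genes were also taken. The highest on chromosome 19, from ZNF146 to ZNF571, lies inside the 29-gene run and had a median of 2.39 (2.26 with experiment as a term), against 0.15 in the induced clone between experiments. On chromosome 13 the window from BORA to TGDS had a median of -1.75 (-1.43). On chromosome 7 the window from IMMP2L to WNT16 had 1.65 (1.32), and on chromosome 17 the window from DRC3 to ULK2 had -1.19 (-1.20). On the X chromosome the window from BEX5 to MUM1L1 had -2 (-1.24), but also -0.83 in the induced clone between experiments. Chromosome medians were modest: the lowest was -0.54 on chromosome 17 (-0.33 with experiment as a term) and the highest 0.25 on chromosome 12 (0.28). A copy number was not measured.

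**Figure D4:**
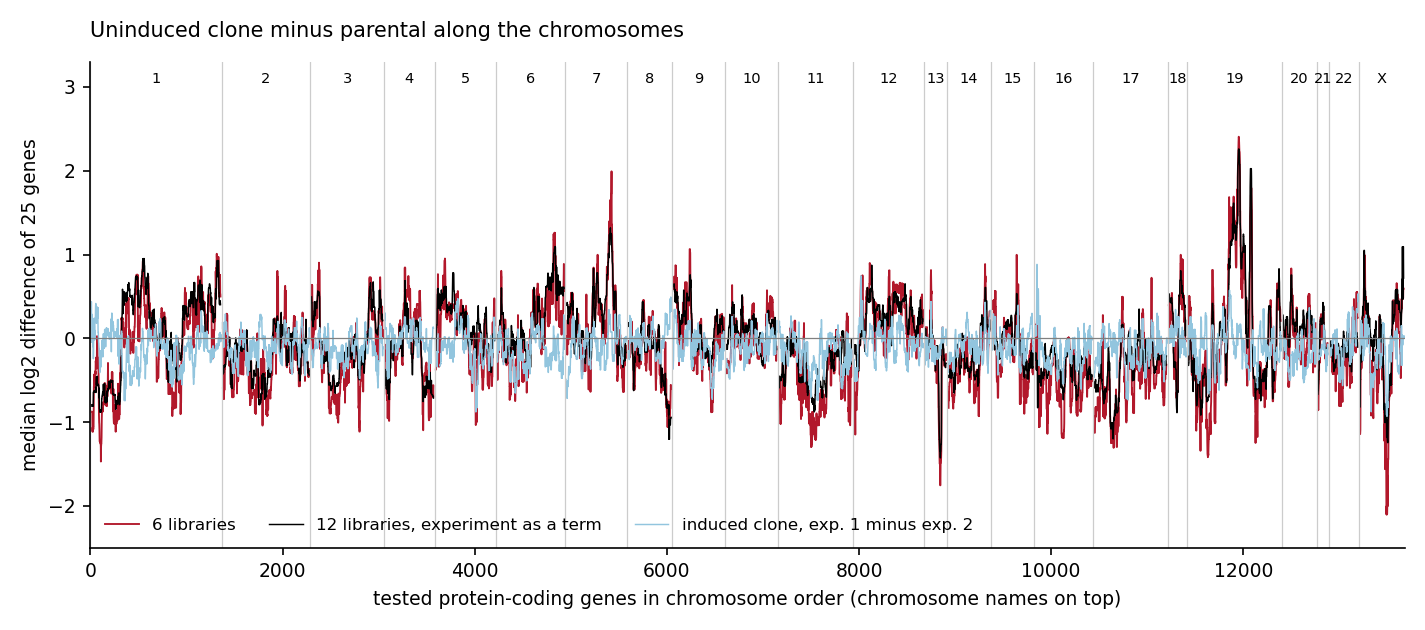
Median log2 difference over 25 neighbouring protein-coding genes along each chromosome in gene order, uninduced clone minus parental in the 6 libraries (red), with experiment as a term (black) and induced clone of experiment 1 minus that of experiment 2 (light blue). Stretches of chromosomes 19 and 7 stand above 0 and stretches of chromosomes 13, 17 and X below it, with medians from 2.39 on chromosome 19 to -2 on X.

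Stress-response genes were higher in the uninduced clone. The integrated stress response, in which phosphorylated eIF2α lets the factor ATF4 drive amino acid and repair genes, was taken as 38 genes. Of these, 24 were higher and 2 lower in both fits, against 20.9% higher and 22.4% lower among all genes tested. This list and those that follow were chosen with earlier results of these data known, so their shares are a description and not a test. The median log2 difference was 1.23 (1.03 with experiment as a term), against 0.03 over all genes. FGF21, a secreted metabolic hormone, had 1.14, 1.11 and 0.906 CPM in the uninduced clone and none in parental cells, at least 51.2-fold higher. GDF15, a secreted stress cytokine, had 16.5, 16.1 and 12 CPM in the uninduced clone, against 0.0690, 0.185 and 0.129 CPM in parental cells (6.82, or 6.23). INHBE, an inhibin subunit, averaged 16.8 ± 0.854 and 0.260 ± 0.0950 CPM (5.97, or 5.77). INHBE stood at 5.37 and 4.68 CPM in the induced clone of experiments 1 and 2, between the uninduced clone and parental cells. The 2 lower members were proline synthesis enzymes, PYCR1 (-1.15, or -1.52) and ALDH18A1 (-0.45, or -0.21).

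Targets of p53, the tumour suppressor that HEK293 cells hold in check through adenoviral proteins, were also higher. Of 28 genes, 20 were higher and 3 lower in both fits, and the median was 0.96 (1.01 with experiment as a term). Among all protein-coding genes tested, 23.3% were higher and 27.7% lower in both fits. FAS, the death receptor, had 17.5, 16.8 and 15.6 CPM in the uninduced clone, against 2.12, 1.91 and 1.81 CPM in parental cells (3.10, or 3.82). PHLDA3, an AKT repressor, averaged 15.4 ± 2.12 and 1.84 ± 0.226 CPM (3.06, or 3.18). The 3 lower members were TP53I3, an oxidoreductase linked to apoptosis, at 0.755 ± 0.209 CPM in the uninduced clone and 13.1 ± 1.75 CPM in parental cells (-4.08, or -2.14), BAX (-2.46, or -0.49) and TIGAR (-1.83, or -0.75). BAX had 12.2 CPM in the induced clone of experiment 1 and 47.6 CPM in that of experiment 2, against 8.08 CPM in the uninduced clone and 44.6 CPM in parental cells.

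Integrins and laminins were more often higher than lower, and other surface and matrix lists were mixed. Among 33 integrins and laminins, 14 were higher and 2 lower in both fits, with a median of 0.71 (0.38), against 20.9% higher and 22.4% lower over all genes. ITGA4 averaged 44.0 ± 2.29 CPM in the uninduced clone and 5.61 ± 0.459 CPM in parental cells (2.97, or 2.47), and ITGA8, an integrin of kidney mesenchyme, 55.2 ± 3.08 and 8.91 ± 0.500 CPM (2.63, or 2.95). ITGB8, the integrin beta subunit that activates TGF-beta, averaged 10.2 ± 0.310 and 1.02 ± 0.424 CPM (3.34, or 2.03). Of 37 collagens, 10 were higher and 6 lower, against 23.3% and 27.7% of all protein-coding genes. The basement membrane collagens COL4A3 and COL4A4, neighbours that share a promoter region, averaged 22.9 ± 1.53 and 30.04 ± 3.53 CPM in the uninduced clone, against 0.371 ± 0.0595 and 2.57 ± 0.170 CPM in parental cells (5.94 and 3.55, or 4.53 and 2.58). COL6A5 was lower, at 8 reads in the uninduced clone and 874 in parental cells, and COL3A1 too (-2.63, or -3.95). Of 24 cadherins and epithelial junction genes, 8 were higher and 7 lower. EPCAM, an epithelial adhesion molecule, had 25.5, 26.8 and 28.3 CPM in the uninduced clone, against 2.28, 2.20 and 2.64 CPM in parental cells (3.49, or 3.52). CDH3, P-cadherin, averaged 15.6 ± 2.37 and 0.843 ± 0.0974 CPM (4.2, or 3), and CLDN1, a tight junction claudin, 11.2 ± 0.573 and 1.21 ± 0.147 CPM (3.22, or 2.95). The mesenchymal cadherin CDH11 and the kidney cadherin CDH6 had no read in the uninduced clone, against 111 and 50 reads in parental cells. CLDN6, an embryonic claudin, had 6 reads against 411 in parental cells.

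Among 79 channel genes, 32 were higher and 14 lower in both fits, with a median of 1.15 (0.53 with experiment as a term, 0.70 in the induced clone between experiments). KCNJ4, an inward rectifier, averaged 3.50 ± 0.118 CPM in the uninduced clone and 0.211 ± 0.0537 CPM in parental cells (4.03, or 1.93), and the modifying subunit KCNV1 was off in the clone against 2.45 CPM in parental cells. Among 30 neuronal and synaptic genes, 8 were higher and 5 lower, against 23.3% and 27.7% of all protein-coding genes, and the median was 0.00 (0.02). MAP2, a dendritic microtubule protein, averaged 14.4 ± 0.833 CPM in the uninduced clone and 0.901 ± 0.208 CPM in parental cells (3.97, or 4.70), and SNAP25, a synaptic SNARE protein, 5.83 ± 0.479 and 0.597 ± 0.0445 CPM (3.29, or 3.20). NEFM, a neurofilament subunit, averaged 0.394 ± 0.0816 and 33.6 ± 2.06 CPM (-6.38, or -5.19).

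Zinc finger genes named ZNF, 448 tested, had 186 higher and 80 lower in both fits with a median of 0.29 (0.25), and 48 higher and 9 lower by a large difference in both. Over all protein-coding genes the shares were 23.3% higher and 27.7% lower in both fits, and 3.08% and 2.05% by a large difference in both. ZNF667 had 8.87, 9.87 and 9.61 CPM in the uninduced clone, against 2 reads in all 3 parental libraries. ZNF320 and ZNF738 had 3 reads each in the uninduced clone, against 3783 and 1699 reads in parental cells. Genes of 1 family on the same chromosome thus differed in opposite directions. The 37 HOX genes tested, which set body position, had 9 higher and 3 lower. HOXC11 and HOXC4 were higher at 1.55 and 1.33 (1.59 and 1.30 with experiment as a term), and HOXA7 lower at -2.18 (-0.94). Of 49 clustered protocadherins fixed, 20 were tested, and 4 were higher and 0 lower, PCDHGB6 and PCDHGA4 among them (3.37 and 1.72, or 3.54 and 2.30). Their long shared 3′ exons mean that a read cannot always be assigned to one isoform. Of 7 cancer-testis and related antigens tested, 1 was higher and 2 lower, LIN28B (-1.22, or -0.94) and PRAME (-0.98, or -0.82).

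Genes of mitochondrial translation were lower, and they also differed between experiments within the clone. In both fits, 23.3% of all protein-coding genes were higher and 27.7% lower. Of 75 mitochondrial ribosomal proteins, 2 were higher and 46 lower in both fits, with a median of -0.98 over the 6 libraries and -0.40 with experiment as a term. In the same induced clone the median between experiments was -0.67. MRPL49 averaged 19.8 ± 2.10 CPM in the uninduced clone and 109 ± 3.77 CPM in parental cells (-2.46, or -0.99), and 28.4 and 78.5 CPM in the induced clone of experiments 1 and 2. Of 76 nuclear oxidative phosphorylation genes, 7 were higher and 30 lower (-0.46, or -0.30), with NDUFB9 among the lower (-2.25, or -1.44) and COX6B1 among the higher (1.12, or 1.21). Of 13 mitochondrially encoded genes, 1 was higher (MT-CO1: 1.57, or 0.59) and 1 lower (MT-ND3: -0.80, or -0.65) in both fits. The mitochondrial ribosomal RNA MT-RNR2 followed the experiment, at 9.79 over the 6 libraries and 0.77 with experiment as a term. Of 11 Pol III and other RNAs without poly(A) tails, 0 were called in the same direction in both fits, with medians of 2.42 and -0.71.

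Cholesterol synthesis and histone lists had more members lower than higher, while the G2 and M phase and interferon lists had similar numbers in both directions. Over all genes 20.9% were higher and 22.4% lower in both fits, and over protein-coding genes 23.3% and 27.7%. Of 24 cholesterol synthesis genes, 1 was higher and 13 lower in both fits (-1.13, or -0.53, and -0.74 in the induced clone between experiments), with SC5D, a late enzyme of the pathway, at 46.4 ± 4.78 CPM in the uninduced clone and 199 ± 11.8 CPM in parental cells. STARD4, a sterol carrier, was the higher one (1.16, or 0.65). Of 22 glycolysis genes, 2 were higher and 6 lower. Of 25 S phase genes, 4 were higher and 8 lower, and of 25 G2 and M phase genes, 5 were higher and 4 lower. MKI67, the Ki-67 protein of dividing cells, averaged 816 ± 77.2 CPM in the uninduced clone and 325 ± 18.9 CPM in parental cells (1.33, or 1.22), while BUB1, a spindle checkpoint kinase, averaged 120 ± 1.43 and 290 ± 5.73 CPM (-1.28, or -1.22). Of 79 cytosolic ribosomal proteins, 22 were higher and 8 lower (0.33, or 0.12), with RPL10 among the higher (1.85, or 1.45). Of 26 replication-dependent histones, 1 was higher and 15 lower (-0.71, or -0.62). HIST1H3J had 3 reads in the uninduced clone and 7384 in parental cells, whereas HIST1H3D averaged 28.2 ± 4.27 and 1.68 ± 0.0657 CPM (4.07, or 4.58). Histone genes are near-identical copies, and counting may move reads between them. Of 25 interferon-stimulated genes, 6 were higher and 6 lower. BST2, tetherin, averaged 5.91 ± 1.36 CPM in the uninduced clone and 0.165 ± 0.138 CPM in parental cells (5.21, or 2.84), and the transcription factor IRF7 had 4 reads in the uninduced clone and 618 in parental cells.

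Among genes tied to splicing and circRNA, lower members outnumbered higher ones in each of 3 lists. The same held over all protein-coding genes tested, with 23.3% higher and 27.7% lower in both fits. Of 24 genes with RBFOX-regulated exons, 7 were higher and 12 lower in both fits (-0.41, or -0.26). NRCAM, a neural adhesion molecule, averaged 121 ± 2.87 CPM in the uninduced clone and 17.1 ± 1.15 CPM in parental cells (2.82, or 1.92). Of 26 back-splicing regulators, 5 were higher and 12 lower, with a median of -0.65 (-0.28 with experiment as a term, -0.53 in the induced clone between experiments). The splicing factor HNRNPM averaged 73.5 ± 6.97 CPM in the uninduced clone and 341 ± 14.8 CPM in parental cells, but 87.2 and 302 CPM in the induced clone of experiments 1 and 2 (-2.22, or -0.43). Of 21 genes of circRNA turnover and export, 1 was higher and 10 lower (-0.82, or -0.44). RPP25, a subunit of RNase P and RNase MRP, had 4.07, 4.09 and 3.08 CPM in the uninduced clone, against 41.9, 40.0 and 41.8 CPM in parental cells (-3.44, or -3.21). DIS3, the exosome nuclease, averaged 105 ± 2.40 and 451 ± 3.51 CPM (-2.10, or -1.52), and lies on chromosome 13.

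Markers of other cell types were low in both lines. For scale, 23.3% of all protein-coding genes tested were higher and 27.7% lower in both fits. Of 12 haematopoietic markers 4 were tested, and their list summed to 5.14 to 6.77 CPM in the uninduced clone and 8.15 to 9.22 CPM in parental cells, with 1 member higher and 2 lower in both fits and medians of -1.36 and -1.07. VAV1 was higher (0.60, or 0.83), and LCP1 was among the lower (-1.99, or -1.48). Of 9 fibroblast markers 5 were tested, with sums of 6.90 to 7.40 CPM in the uninduced clone and 9.12 to 10.8 CPM in parental cells, and 0 were higher and 2 lower in both fits, COL1A1 (-0.54, or -0.64) and COL3A1. None of 9 hepatocyte markers was tested, with sums of 0.332 to 0.598 and 0.0460 to 0.268 CPM. Of 15 kidney epithelial genes tested, 2 were higher and 4 lower in both fits, SALL1 among the lower (-0.77, or -0.44). The keratins KRT8 and KRT18 were present in both lines, at 56.5 and 48.2 CPM in the uninduced clone and 72.8 and 98.2 CPM in parental cells. PAX8, LHX1 and CDH16 were not among the genes tested.

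Total circRNA had a smaller mean in the uninduced clone than in parental cells, and the size of the difference depended on the denominator. Back-splice reads numbered 10004 to 19553 per uninduced library and 24583 to 28691 per parental library. They came to 357 ± 55.8 per 1000000 gene counts in the uninduced clone and 585 ± 44.6 in parental cells (SD, n = 3 each), a log2 difference of -0.72 (SE 0.15). The 3 uninduced libraries lay below the 3 parental ones, and an exact two-sided permutation test gave p = 0.1, the smallest that 3 against 3 allows. The same clone induced gave 384 ± 23.7 in experiment 1 and 548 ± 39.8 in experiment 2, a difference of -0.51, and the difference less that of the induced clone was -0.21. Set against protein-coding counts in the same way, the uninduced clone had 572 ± 103 and parental cells 656 ± 55.7, a log2 difference of -0.21 (exact p = 0.5).

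Single circRNAs were tested on 2097 of 12447 shared entries, on 1375 hosts (median length 441 bases and 3 exons). Of these, 87 (4.15%) were higher and 243 (11.6%) lower at an edgeR adjusted p under 0.05, and leaving out uninduced library 1, 2 or 3 gave 167, 205 or 195 calls in place of 330. Scaled by back-splice totals, 148 were higher and 148 lower. With experiment as a term 5 (0.238%) were higher and 4 (0.191%) lower, and 7 were called in both. In the induced clone between experiments, 55 (2.8%) were higher and 167 (8.51%) lower of 1962. The circRNA with the most reads, from CDYL, a chromodomain protein gene (chr6:4891947-4892613, hg19), had 132, 117 and 54 reads in the uninduced clone, against 345, 383 and 364 in parental cells. Its log2 difference of -1.63 became -0.32 with experiment as a term (adjusted p = 0.742). That of SPECC1 (chr17:20107646-20109225) had 46, 37 and 21 reads in the uninduced clone, against 163, 204 and 214 in parental cells (-2.23, or -1.16 with an adjusted p of 0.1). That of MAN1A2 (chr1:117944808-117963271) had 137, 136 and 96 reads in the uninduced clone, against 58, 89 and 85 in parental cells (0.93, or 0.89 with an adjusted p of 0.177).

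Some circRNAs had reads on 1 side. Over the entries of either table, 32 had a read in every uninduced library, at least 10 in all, and none in parental cells, and 103 the reverse. With the induced clone of experiment 2 required on the clone side as well (a condition added after the data were seen), 6 and 17 were left. A pair of circRNAs of MID1 (chrX:10491132-10535643 and chrX:10534928-10535643, hg19), whose host was lower, had 0, 0, 0 and 1, 0, 0 reads in the uninduced clone, against 32, 24, 25 and 20, 28, 28 in parental cells. The induced clone had 1 read of the longer in its 6 libraries. A circRNA of ERC1, a presynaptic scaffold gene (chr12:1345935-1399178), had 15, 15 and 14 reads in the uninduced clone and none in parental cells, and in the induced clone 29, 11 and 13 in experiment 1 and 151, 158 and 132 in experiment 2, so the same clone differed between experiments as well. Its host had a log2 difference of -0.16. Another ERC1 circRNA (chr12:1345935-1481143) had 5, 3 and 3 reads in the uninduced clone and none in parental cells. That of ZNF420, a zinc finger gene of the chromosome 19 run (chr19:37579941-37582023), had 11, 9 and 4 reads in the uninduced clone and none in parental cells, beside a host log2 difference of 2.41, and 8, 6, 6 and 4, 4, 3 reads in the induced clone of experiments 1 and 2. AFF2 gave 24, 32 and 16 reads of its circRNA (chrX:147743429-147744289) in the uninduced clone, against 2, 0 and 2 in parental cells (4.28, or 4.46). A circRNA of SEC24B, a coat protein gene of secretory vesicles (chr4:110412483-110416012), had none in the uninduced clone, against 20, 12 and 18 reads in parental cells, beside a host log2 difference of 0.35. The induced clone had 2, 4 and 0 reads of it in experiment 1 and 3, 4 and 3 in experiment 2, and with experiment as a term its adjusted p was 0.0616.

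The 7 circRNAs called in the same direction in both fits were the pair from ERC1, that of AFF2, and 4 others. Those of FOXK2, a forkhead factor gene, and RNF138, a ubiquitin ligase gene, were lower. FOXK2 gave 9, 9 and 2 reads in the uninduced clone, against 68, 72 and 59 in parental cells (-3.07, or -2.21), and RNF138 gave 72, 49 and 38, against 149, 127 and 150 (-1.18, or -1.62). That of MND1, a meiotic recombination gene, had 3, 3 and 1 reads in the uninduced clone, against 11, 18 and 17 in parental cells (-2.41, or -4.02). That of RP11-453F18__B.1, a noncoding locus on the X chromosome, was higher, with 37, 54 and 26 reads in the uninduced clone, against 2, 11 and 12 in parental cells (2.47, or 2.22). In each of these 4 the groups did not overlap, which adds no support because the calls that picked them rest on the same libraries.

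Against all reads of the host gene, 41 circRNAs (2.03%) were higher and 184 (9.11%) lower of 2019 tested, in an edgeR fit with library as a block. Leaving out uninduced library 1, 2 or 3 gave 92, 93 or 41 calls, and scaling by back-splice totals gave 104 higher and 106 lower. With experiment as a term 2 were higher and 0 lower. Of 85 higher circRNAs with a tested host, 66 had a host called higher, and of 232 lower ones, 146 had a host called lower. A host counts once for each of its circRNAs here, whereas over all genes 39.9% were called higher and 39.3% lower. Among 24 tested circRNAs of hosts large in both fits, 23 had the sign of the host and 8 were called. RBFOX1 had no circRNA in either table, and the 10 of RBFOX2 summed to 6 reads in the uninduced clone and 3 in parental cells, too few for a test.

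**Figure D5:**
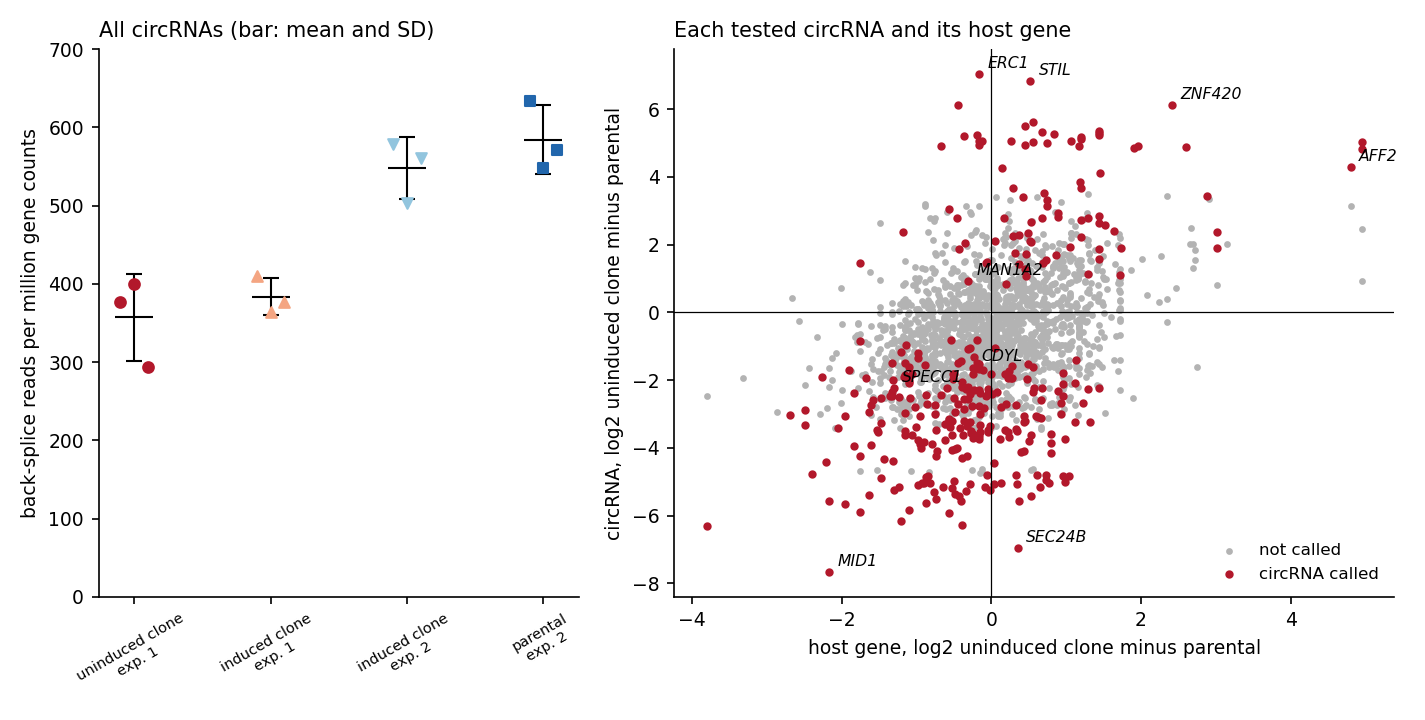
Left, back-splice reads per 1000000 gene counts per library with the mean and SD of each group, which lie at 357 ± 55.8 in the uninduced clone and 585 ± 44.6 in parental cells. Right, log2 difference (uninduced clone minus parental) of each tested circRNA against that of its host gene.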

How the data were processed

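RNA was total RNA, prepared with the Qiagen miRNeasy kit and Illumina TruSeq RNA libraries and sequenced on a NextSeq500 in paired ends, per the labels' protocols. The authors deposited read counts per gene and back-splice read counts per circRNA, raw and not normalized, with 1 gene table and 1 circRNA table for each of the 2 experiments. STAR 2.5.2b and GRCh37/hg19 are named in the submitters' processing notes without a role. The gene counter, the circRNA caller, strand and any removal of ribosomal RNA are not given in the sources used here. The tables list no gene without a read. Circular RNA coordinates are hg19, 1-based. Gene types, gene order and promoters come from RefSeq GRCh38.p14, matched by gene identifier or symbol.

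Tables were joined on identifiers. Genes passing filterByExpr (minimum count 10) were tested in R 4.3.3 with edgeR 4.0.16 (quasi-likelihood F-test, two-sided, TMM factors from all 12 libraries, Benjamini-Hochberg over all genes tested, threshold 0.05), in the 6 libraries and in 12 libraries with experiment as a term. CircRNAs needed 10 reads over 6 libraries and a read in 3, and used gene library sizes. The ratio to the host was tested as an interaction with library as a block. Scripts were tested on simulated data. On/off genes were counted without a test, and folds against 0 are lower bounds against 3 counts over the group, covering counting error only.

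Named genes were the 3 RBFOX genes and the 8 protein-coding on or off genes of highest CPM per direction. The 8 largest differences per direction were taken among genes large in both fits, at 1 CPM or more in both groups without overlap. Up to 3 members per direction of each gene list were taken among those called in both fits. Genes in one table alone, run members, and circRNA hosts were added after their values were seen. Members and lists were chosen with earlier results of these data known. Alternatives were library-total scaling, DESeq2 1.42.0, no filter, other sizes, thresholds and denominators, a replicate block and leaving out each library.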

Additional observations from a re-analysis of the deposited data

Results flagged for a closer look

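Signal outside the main tables of shared genes stood out on both sides. In the table of experiment 2 alone, 45 genes had at least 10 reads in each parental library, among them PABPC4L, STS, PUDP, PNPLA4, LRAT, ARSE, SALL3 and GABRB1. SALL3, a developmental transcription factor, averaged 3.00 CPM and GABRB1, a GABA-A receptor subunit, 2.89 CPM in parental cells. In the table of experiment 1 alone, 34 genes had at least 10 reads in each uninduced library.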

How the results depend on the processing

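Calls over all genes stayed within 1.5 times of 15123 under the alternatives run, with 14743 by DESeq2 and 14528 to 15554 with 1 library left out. Large differences, 3042 in all, numbered 4913 with no low-count filter, 1336 with experiment as a term, 1658 when protein-coding nuclear genes alone were fitted, 8081 at a log2 size of 1 and 1394 at 3, and 3184 to 3435 with 1 library left out. On genes, 77 in all, numbered 34 at 30 reads in every library and 140 when 1 read was allowed in each silent library. They numbered 28 with the induced clone of experiment 2 required and 111 over genes listed in either experiment. With 1 library left out they numbered 82 to 115. Off genes, 54 in all, numbered 31, 148, 28 and 99 under the same settings in that order, and 57 to 81 with 1 library left out. CircRNA calls, 330 in all, numbered 162 with no filter, 9 with experiment as a term, 206 with a replicate block and 167 to 288 with 1 library left out. Calls against the host, 225 in all, numbered 6, 2, 119 and 41 to 205 in the same order. Total circRNA, at -0.72, was -0.21 per protein-coding counts, -0.21 less the induced difference and -0.81 to -0.59 with 1 library left out. CircRNAs on 1 side fell to 6 of 32 and 17 of 103 with the induced clone of experiment 2 required, an alternative chosen after seeing the data. The causes were not tested.

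Same-numbered libraries had correlations of deviations of 0.030, -0.006 and 0.043, so the numbers were not taken to pair the samples. A replicate block gave 15114 gene calls and 3052 large differences. Of 940 values for 105 named genes, 936 kept direction and side of the threshold. Of 239 values for 26 named circRNAs, 206 did, and with experiment as a term 19 of the 26 did not. Many of the genes were named because they were called in both fits, and the alternatives reuse the same libraries. Agreement among the genes was thus largely set by how they were picked. RBFOX3 missed the threshold with experiment as a term and VAV1 with library totals, and RNY1 (-1.21) and RNU6ATAC (-0.69) turned with experiment as a term. The CCDC18 circRNA, not called in the 6 libraries, turned to 0.36 with back-splice totals, 2.39 with experiment as a term and between -0.39 and 0.082 with 1 library left out, and a ZNF711 circRNA turned to -1.11 with experiment as a term. Requiring 20 reads left 305 circRNA calls.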
